A study of Mus musculus with 48 samples.

Results

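The SLC25 family of mitochondrial solute carriers was followed in mouse gastrocnemius, a mostly fast-twitch calf muscle, after exposure to perfluorooctane sulfonate (PFOS), a persistent fluorinated surfactant. Members were taken by name and type: protein-coding genes whose symbol starts with Slc25a. The count table held 47 of them among 54532 genes, and the 38 with at least 1 CPM (counts scaled to a common library size) in 12 or more of the 48 libraries are described. Every mouse gave 1 library. PFOS was given by gavage for 21 days at 0, 1 or 10 mg/kg/day. Each dose was given to females and males of the hCYP2B6-Tg genotype, which carry the human drug-metabolising enzyme gene CYP2B6, and of the Cyp2b-null genotype, in which mouse Cyp2b genes were deleted. Genotype and sex together make the 4 strata. The labels give neither the construct, its promoter, nor the age of the mice. The 0 dose had 17 mice, the dose of 1 had 16 and that of 10 mg/kg/day had 15, with 4 in each of the 12 groups except 5 hCYP2B6-Tg males at 0 and 3 Cyp2b-null males at 10.

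SLC25 proteins are carriers of the inner mitochondrial membrane, most of which exchange one solute for another. They bring ADP and phosphate to ATP synthase and send ATP out, move the organic acids and amino acids that carry reducing equivalents between cytosol and matrix, and deliver fatty acids, cofactors, iron and glutathione. Muscle, where ATP is made in mitochondria and spent at the myofibrils, relies on a muscle and heart form of the ADP/ATP carrier. A few members sit in the outer membrane or in peroxisomes.

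The libraries held 11571142 to 19921061 counts, with a median of 14420691. In the labels, the library numbers rise with dose inside each stratum, so handling and dose cannot be told apart. Muscle fibre transcripts dominated every library, and the summed level of 8 fibre markers was 59340 to 129600 CPM at 10 and 119800 to 164500 CPM at 0 mg/kg/day. The share of counts from mitochondrial DNA was 7.66 ± 1.27% in mice at 10 mg/kg/day and 10.6 ± 1.33% in mice at 0 (SD, n = 15 and 17). The summed level of 15 adipocyte markers, none of them at 0 in all libraries, was 613 to 1468 CPM at 0, 554 to 3251 at 1 and 913 to 8646 at 10 mg/kg/day. Liver transcripts stood out in 1 library, replicate 2 of the Cyp2b-null males at 1 mg/kg/day, with 3099 CPM over 9 liver markers, and lymph node transcripts were clear in another 5, 1 of them at 0 and 4 at 10 mg/kg/day. Cyp2b9, Cyp2b10 and Cyp2b13 had 0 counts in the 25 hCYP2B6-Tg libraries, and the 10 counts of Cyp2b9 and 5 of Cyp2b10 in the 23 Cyp2b-null libraries came from 1 library each, so muscle does not check the genotype labels. Levels below are CPM on scaled library sizes unless said to be per kilobase of gene length.

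Without PFOS the family was dominated by the muscle ADP/ATP carrier. Per kilobase, Slc25a4 stood at 1436 ± 203 CPM per kb at 0 mg/kg/day (SD, n = 17), Slc25a3, the phosphate carrier, at 145 ± 18.1, Slc25a11, the oxoglutarate/malate carrier, at 118.5 ± 14.6, and Slc25a12, the aspartate/glutamate carrier aralar, at 76.2 ± 8.77. The range over mice of Slc25a4 lay far above that of every other member. On the deposited gene lengths, Slc25a3 and Slc25a11 were closer to each other than their summed SD. A gap separated these 4 from Slc25a28, the iron carrier mitoferrin-2, at 21.5 ± 3.71 CPM per kb, after which neighbours in the order mostly lay within their SD of each other. The NAD carrier Slc25a51 stood at 17.1 ± 1.2, the glutathione carrier Slc25a39 at 15.9 ± 2.58, the widely expressed ADP/ATP carrier Slc25a5 at 13.9 ± 1.86 and the acylcarnitine carrier Slc25a20 at 13.8 ± 2.83 CPM per kb. The lowest described member, Slc25a53, was at 0.210 ± 0.0729 CPM per kb. Slc25a25 had the widest spread of the described members relative to its mean, 10.3 ± 10.0 CPM per kb.

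**Figure D1:**
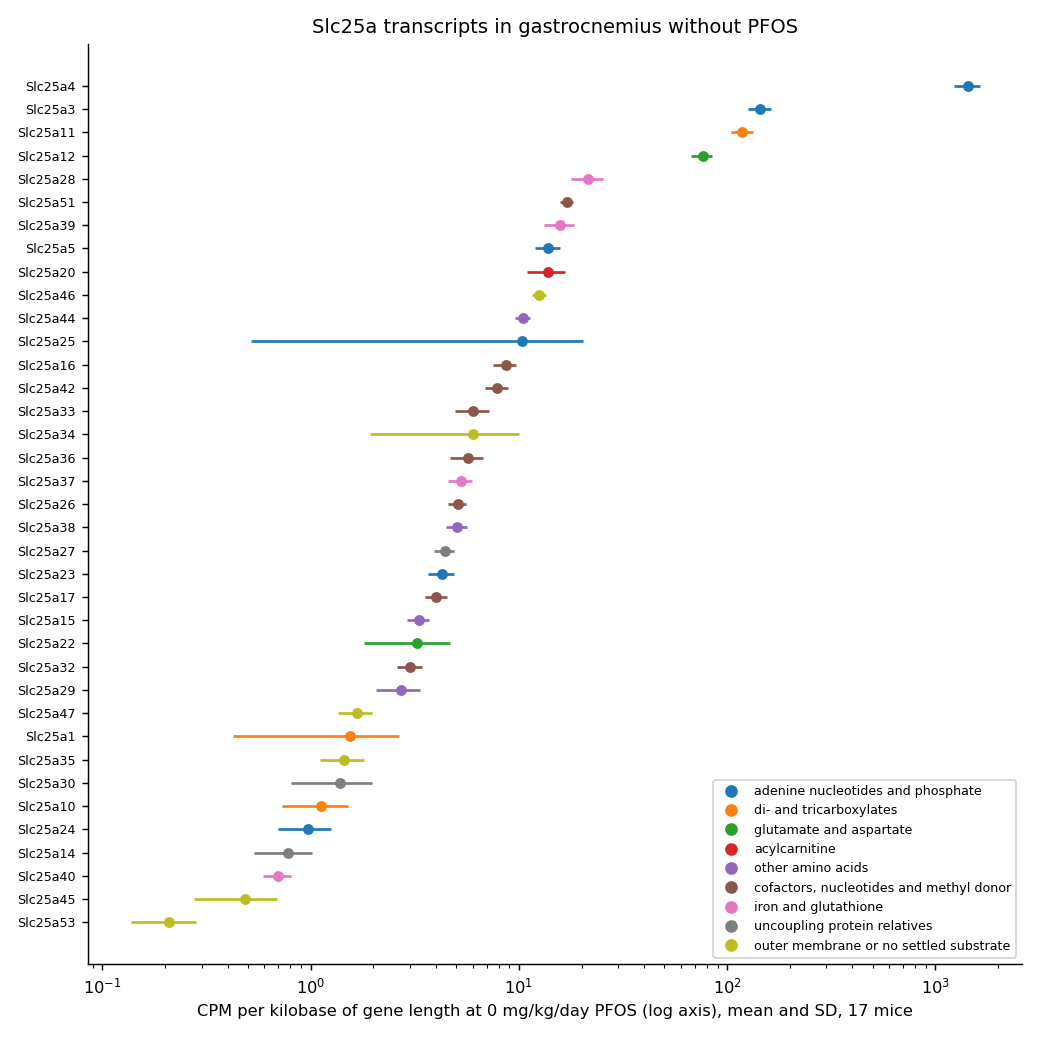
Level of 37 of the 38 described carriers in the 17 mice at 0 mg/kg/day PFOS, as CPM per kilobase of gene length on a log axis; points are means, bars the SD, colours the substrate groups. Slc25a4 at 1436 CPM per kb stands apart, and Slc25a53 at 0.210 is lowest.

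At 10 mg/kg/day more carriers were lower than higher against 0 mg/kg/day, among them the ADP/ATP carrier Slc25a4, the phosphate carrier Slc25a3 and the malate-aspartate shuttle carriers Slc25a11 and Slc25a12. Averaged over the 4 strata, 28 of the 38 members passed an adjusted p of 0.05 in edgeR's quasi-likelihood test, 73.7%, where 47.5% of the 15583 genes tested did so. Of the 28, 19 were lower and 9 higher, against 22.5% and 25% of all genes tested, and with library totals used without scaling factors the split turned to 10 lower and 13 higher. That scaling moved the median log2 fold change of all genes to 0.255, against 0.036 in the fit used here, and the members' median to -0.007, against -0.219. Slc25a4, Slc25a3, Slc25a11, Slc25a12, Slc25a15 and Slc25a28 kept their direction and passed under it. With the level of adipocyte markers, which was higher at 10 than at 0 mg/kg/day, as a covariate, 17 members passed, 13 lower and 4 higher, and 16 of them were among the 28. Over all genes 5073 of 15583 passed with that covariate. In whole muscle, fewer cells of a type and less RNA per cell cannot be told apart. All members together took 0.460 ± 0.0241% of counts at 10, with a range of 0.421 to 0.497%, and 0.553 ± 0.0460% at 0 mg/kg/day, with a range of 0.492 to 0.652% (SD, n = 15 and 17). Slc25a4 alone held 52.45 ± 4.19% of the members' counts at 10 and 57.6 ± 2.45% at 0 mg/kg/day, so this share mostly follows 1 gene.

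**Figure D2:**
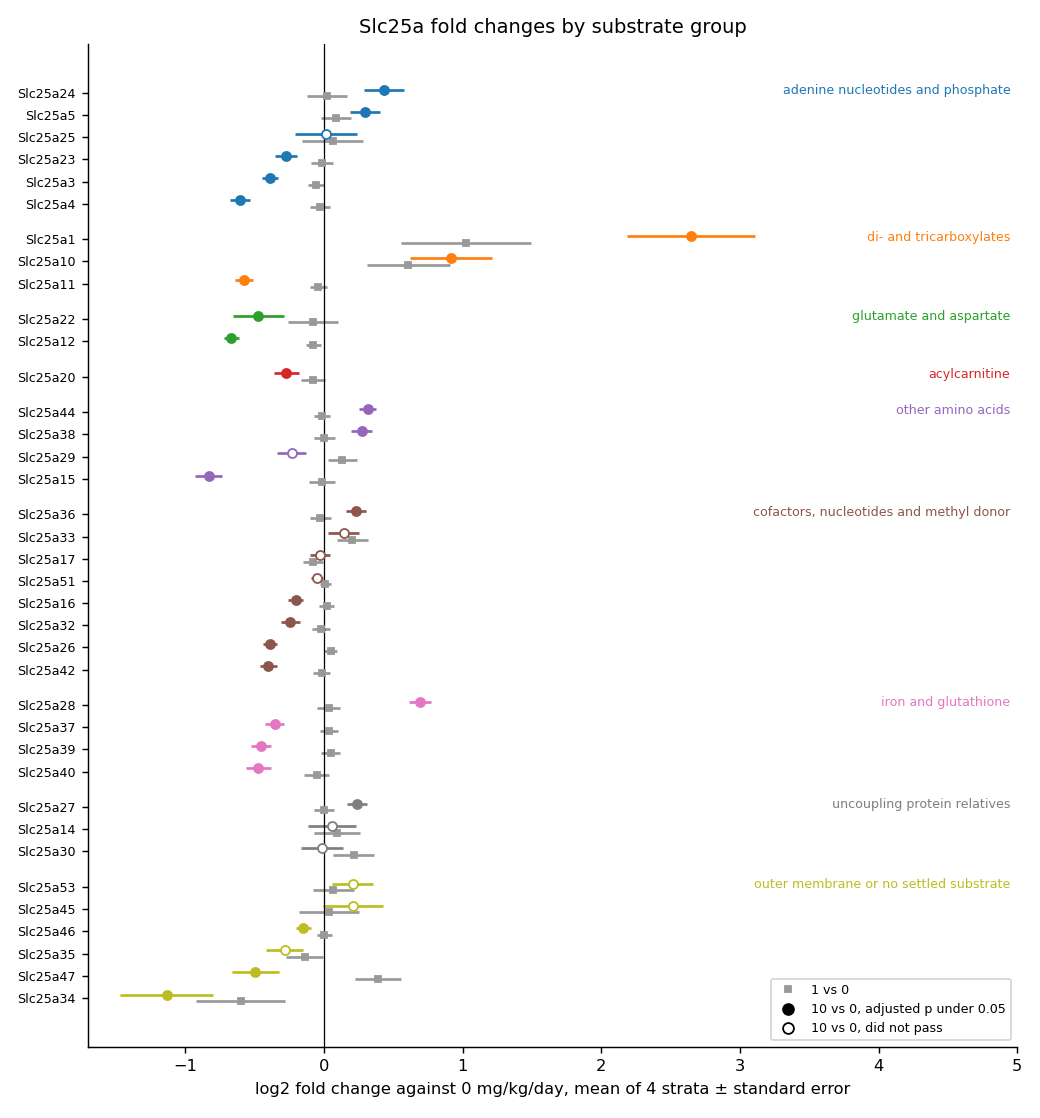
Log2 fold change of 37 of the 38 described carriers at 10 (coloured circles) and at 1 mg/kg/day (grey squares) against 0 mg/kg/day, mean of 4 strata with the standard error as bars, grouped by substrate. Filled circles passed an adjusted p of 0.05; at 10 mg/kg/day Slc25a1 is farthest to the right at 2.65 and Slc25a34 farthest to the left at -1.14, and no square passed.

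Among carriers of adenine nucleotides and phosphate, 3 of 6 described members were lower, 2 were higher and Slc25a25 did not pass. Of all genes tested, 22.5% were lower and 25% higher. Slc25a4 (chr8:46206797-46211284, minus strand, GRCm38), which exchanges ADP for ATP in muscle and heart, ran from 1506 to 2850 CPM at 10, with a median of 2212, and from 2752 to 4538 CPM at 0 mg/kg/day, with a median of 3264. Only the top of the exposed mice reached the bottom of the unexposed ones. The mean was 2203 ± 382 CPM at 10 and 3378 ± 477 CPM at 0 mg/kg/day, a log2 fold change of -0.61 ± 0.074 (SE, edgeR quasi-likelihood adjusted p = 1.08e-08). Within strata the groups stood apart in hCYP2B6-Tg females, with 2067 to 2298 CPM at 10 and 2927 to 3277 CPM at 0, in females of the Cyp2b-null genotype, with 1506 to 2796 and 3154 to 3724 CPM, and in Cyp2b-null males, with 1874 to 2432 and 2752 to 3601 CPM. They overlapped in hCYP2B6-Tg males, with 1770 to 2850 at 10 and 2839 to 4538 CPM at 0 mg/kg/day. With the adipocyte marker level as a covariate the log2 fold change of Slc25a4 was -0.38 and still passed.

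Slc25a3 (chr10:91116574-91124059, minus strand), which imports the phosphate for ATP synthesis, ran from 554 to 738 CPM at 10, with a median of 611, and from 654 to 988 CPM at 0 mg/kg/day, with a median of 812 (log2 fold change -0.39 ± 0.0586, edgeR adjusted p = 7.64e-07). The ranges overlapped over all mice and in hCYP2B6-Tg males, and stood apart in the other strata. Slc25a5 (chrX:36795651-36798807, plus strand), the ADP/ATP carrier found in most tissues, ran from 18.5 to 57.7 CPM at 10 and from 18.5 to 29.9 CPM at 0 mg/kg/day. Most exposed mice lay inside the unexposed range, and the highest were the Cyp2b-null females with 57.7 and 43.9 CPM. Its log2 fold change was 0.30 ± 0.110 (edgeR adjusted p = 0.0240). The same 2 mice had adipocyte levels of 7.36 and 6.74 on the log2(CPM + 0.5) scale, against a median of 5.30 over the 15 mice at 10 mg/kg/day, and with the adipocyte level as a covariate the value for Slc25a5 turned to -0.05 and did not pass. Leaving out Cyp2b-null male 10 replicate 3 also ended the call, at 0.21, as did leaving out Cyp2b-null female 10 replicate 1. A share of 46.6% of the 50-base stretches of the Slc25a5 transcript recurs in 9 other genes, mostly the pseudogene Gm5560, so its level is uncertain. Per kilobase, the ratio of Slc25a4 to Slc25a5 had a median of 106.7 at 0, 99.4 at 1 and 61.4 at 10 mg/kg/day, with ranges of 78.7 to 157, 56.2 to 114.5 and 21.7 to 98.8.

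The calcium-regulated ATP-Mg/phosphate carriers, which adjust the adenine nucleotide content of the matrix, split. Slc25a23 was lower, at 19.0 ± 3.76 CPM at 10 and 22.6 ± 3.19 CPM at 0 mg/kg/day (log2 fold change -0.28 ± 0.0807). That call was lost with unscaled library totals (-0.05) and without the 6 libraries that held liver or lymph node transcripts (-0.20), and hCYP2B6-Tg males alone stood at 0.07. Slc25a24 was higher, at 4.62 ± 1.59 CPM at 10 and 3.34 ± 0.938 CPM at 0 mg/kg/day (0.43 ± 0.144), and did not pass with the adipocyte covariate, at 0.19. Slc25a25 averaged 72.8 ± 40.3 CPM at 10 and 81.2 ± 78.8 CPM at 0 mg/kg/day, with a log2 fold change of 0.02 ± 0.226. That mean hid different strata, which are given further on.

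**Figure D3:**
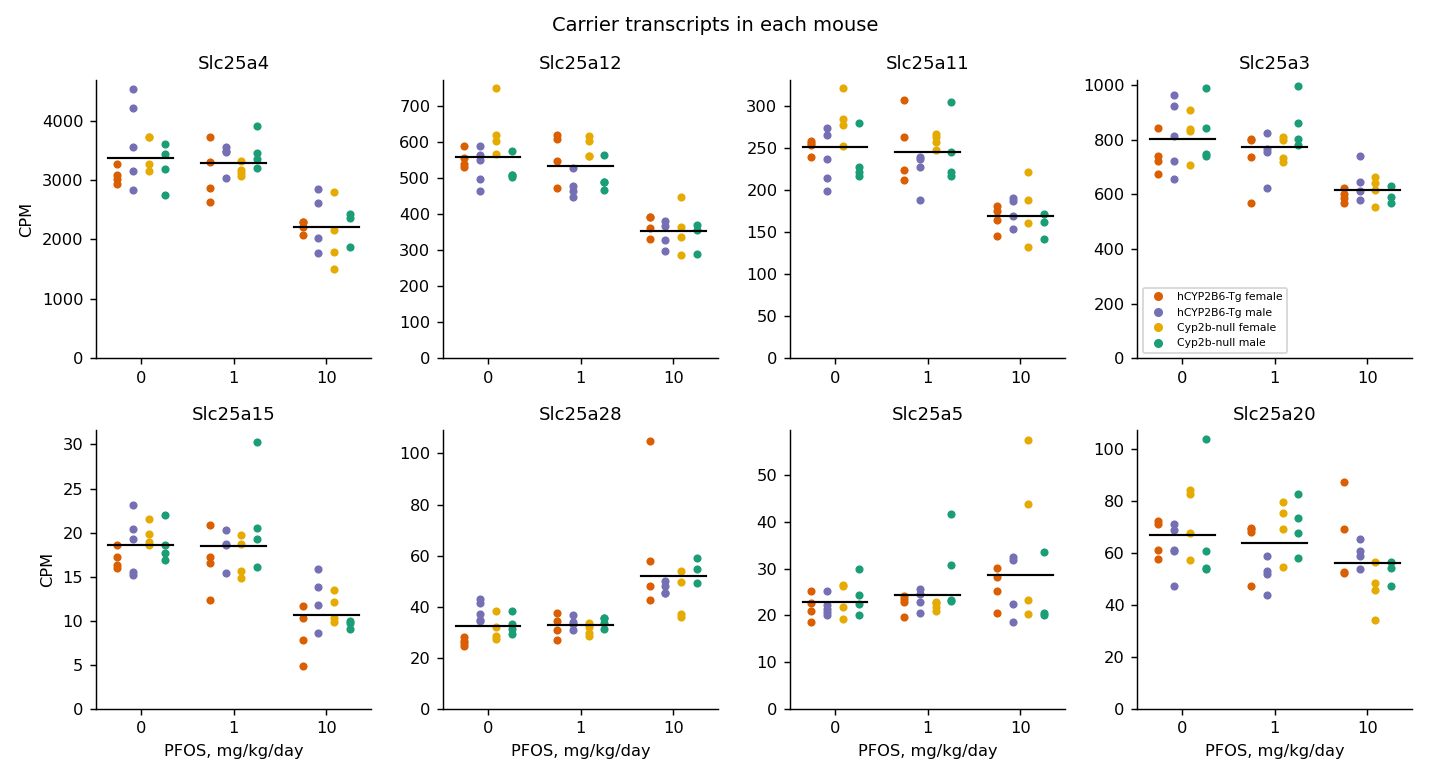
CPM of 8 carriers in each of the 48 mice by PFOS dose; each point is 1 mouse, colours are the 4 strata and black lines the mean of a dose. Slc25a4, Slc25a12, Slc25a11, Slc25a3 and Slc25a15 have lower means at 10 mg/kg/day and Slc25a28 a higher one, while at 1 mg/kg/day the points lie where those at 0 lie.

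The 3 described di- and tricarboxylate carriers went opposite ways, with Slc25a1 and Slc25a10 higher and Slc25a11 lower. Among all genes tested 25% were higher and 22.5% lower. Slc25a11 (chr11:70644196-70647479, minus strand), which exchanges malate for 2-oxoglutarate in the malate-aspartate shuttle, ran from 132 to 221 CPM at 10, with a median of 169, and from 199 to 321 CPM at 0 mg/kg/day, with a median of 254. The groups did not overlap within any of the 4 strata. Its log2 fold change was -0.58 ± 0.0649 (edgeR adjusted p = 2.01e-09). Rnf167, on the opposite strand across part of Slc25a11, had counts equal to 16.4% of those of the carrier and a log2 fold change of 0.27, and whether strand was used in counting is not given in the sources used here.

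Slc25a1 (chr16:17925223-17928219, minus strand), which exports the citrate used for cytosolic fatty acid and sterol synthesis, had the largest rise of the described members. It ran from 1.62 to 117 CPM at 10, with a median of 12.1, and from 1.13 to 11.2 CPM at 0 mg/kg/day, with a median of 2.62. Of the 15 exposed mice, 8 lay above the highest unexposed one. The highest were Cyp2b-null females with 117 and 71.2 CPM and a hCYP2B6-Tg male with 62.7 CPM, while 2 exposed mice had 1.62 and 3.07 CPM. Fitted over all strata, the log2 fold change came to 2.65 ± 0.462 (edgeR adjusted p = 9.06e-06), with positive values in all 4 strata. Groups stood apart in Cyp2b-null males only, at 5.57 to 23.2 CPM at 10 and 1.13 to 4.38 CPM at 0 mg/kg/day. Slc25a10 (chr11:120491840-120499187, plus strand), which exchanges malate or succinate for phosphate, ran from 2.30 to 27.8 CPM at 10, with a median of 6.87, and from 2.26 to 7.74 CPM at 0 mg/kg/day, with a median of 3.81 (log2 fold change 0.92 ± 0.298, edgeR adjusted p = 0.0104). Its groups overlapped in every stratum, and without Cyp2b-null male 10 replicate 3 the log2 fold change was 0.73 and did not pass. Per kilobase, the citrate carrier stood at 0.0135 ± 0.0103 of the oxoglutarate carrier at 0, 0.0316 ± 0.0431 at 1 and 0.161 ± 0.210 at 10 mg/kg/day.

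The levels of both rising carriers followed those of adipocyte transcripts from mouse to mouse. The markers include Fasn, Acaca and Scd1, genes of fatty acid synthesis, which uses exported citrate. They also include Plin4 and Pnpla2, at 331 and 231.5 CPM in mice at 0 mg/kg/day. Whether the relation comes from fat cells or from shared fatty acid synthesis was not tested. Of 15 adipocyte markers, 13 were higher and none lower at 10 than at 0 mg/kg/day. Over all genes tested, the shares were 25% higher and 22.5% lower. The mean level of these 15, as log2(CPM + 0.5), came to 5.44 ± 1.17 with 10 mg/kg/day, against 3.72 ± 0.802 without PFOS (SD, n = 15 and 17). With group means removed, Slc25a1 correlated with that level over the 48 mice at Pearson r = 0.912 and Spearman rho = 0.863 (100000 permutations within groups, two-sided p = 1e-05 for each, the smallest they can give, and 1.5e-05 adjusted over 3 relations). Without the 2 mice farthest from the median, r was 0.889. Slc25a10 gave r = 0.800 and rho = 0.770 (permutation p = 1e-05 each, adjusted 1.5e-05), and r = 0.773 without the 2 farthest mice. With the adipocyte level as a covariate, the log2 fold change of Slc25a1 was 0.14 and that of Slc25a10 was -0.44, and neither passed. All points share a library with the marker level they are set against.

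**Figure D4:**
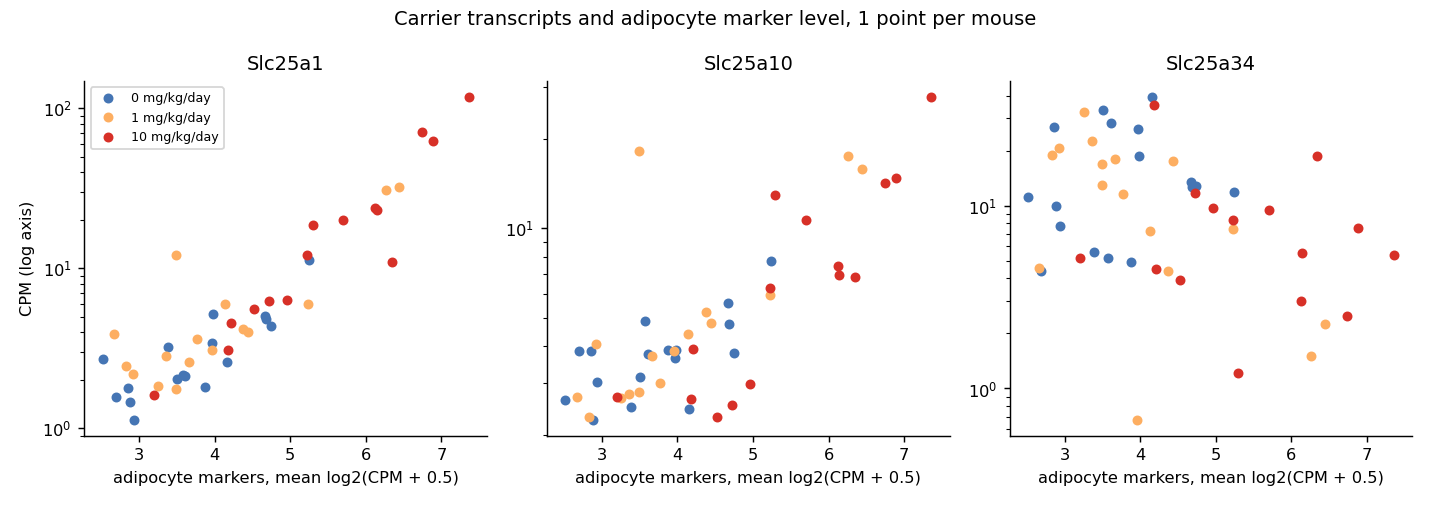
CPM of Slc25a1, Slc25a10 and Slc25a34 (log axis) against the mean log2(CPM + 0.5) of 15 adipocyte markers, with 1 point per mouse coloured by PFOS dose. The mice with the most Slc25a1, up to 117 CPM, are those with the most adipocyte transcript, and 2 of the 1 mg/kg/day mice lie with them, whereas Slc25a34 shows no such rise.

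Promoters are shown for the described members with the largest rise and the largest fall, as RefSeq gives them on GRCm38.p6. They run from 250 bases before to 50 bases after the start of the gene, read 5′ to 3′ on the strand of the gene. CCAAT boxes on either strand are in capitals (the reverse strand reads ATTGG). The windows were chr16:17928170-17928469 for Slc25a1 and chr4:141623785-141624084 for Slc25a34, both on the minus strand.
Slc25a1: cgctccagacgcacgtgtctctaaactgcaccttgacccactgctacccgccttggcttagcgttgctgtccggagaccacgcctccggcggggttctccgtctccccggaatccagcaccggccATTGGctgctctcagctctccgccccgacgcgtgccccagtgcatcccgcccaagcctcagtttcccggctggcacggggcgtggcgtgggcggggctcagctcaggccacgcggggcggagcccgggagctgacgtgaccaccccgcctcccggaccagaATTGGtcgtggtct
Slc25a34: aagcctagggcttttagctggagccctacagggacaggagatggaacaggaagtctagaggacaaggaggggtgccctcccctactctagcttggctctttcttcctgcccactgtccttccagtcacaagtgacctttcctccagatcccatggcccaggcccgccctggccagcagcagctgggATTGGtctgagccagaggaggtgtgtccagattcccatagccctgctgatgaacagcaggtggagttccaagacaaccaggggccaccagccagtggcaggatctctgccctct
The citrate carrier window has 2 matches and 69.3% G and C, and that of Slc25a34 has 1 match and 59.0%. CCAAT was found in 17 of the 29 described members with a promoter in the table, and in 41.1% of all 27025 promoters. The letters TCAAGGTCA and TCACNCCAC, searched on both strands, were in none of the 29 windows, and in 0.466% and 1.44% of all promoters.

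Both described carriers of glutamate and aspartate were lower, where 22.5% of all genes tested were. Slc25a12 (chr2:71271063-71367749, minus strand), which sends aspartate out of the matrix in exchange for glutamate and drives the malate-aspartate shuttle, ran from 286 to 448 CPM at 10, with a median of 363, and from 464 to 750 CPM at 0 mg/kg/day, with a median of 555. It was the only 1 of the 38 members whose ranges over all mice did not overlap, where 0.738% of all genes tested were lower without overlap and 1.01% did not overlap in either direction. Fitted over all strata, the log2 fold change came to -0.67 ± 0.0553 (edgeR adjusted p = 1.56e-12), between -0.82 in Cyp2b-null females and -0.58 in hCYP2B6-Tg females, and it passed in each stratum. Slc25a22, which imports glutamate, ran from 7.82 to 37.4 CPM at 10 and from 9.92 to 40.5 CPM at 0 mg/kg/day (-0.47 ± 0.184, edgeR adjusted p = 0.0323), and 9 of the 48 fits that each left out 1 library ended its call. All 6 enzymes listed for the malate-aspartate and glycerol phosphate shuttles were lower as well, where 22.5% of all genes tested were, among them mitochondrial malate dehydrogenase Mdh2 (-0.72 ± 0.0608), the cytosolic glycerol phosphate dehydrogenase Gpd1 (-0.90 ± 0.1) and its mitochondrial partner Gpd2 (-0.67 ± 0.0906).

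Slc25a20 (chr9:108662088-108684641, plus strand), which carries acylcarnitines into the matrix for beta-oxidation, ran from 34.3 to 87.4 CPM at 10, with a median of 54.1, and from 47.4 to 104 CPM at 0 mg/kg/day, with a median of 61.2. Its log2 fold change was -0.27 ± 0.0901 (edgeR adjusted p = 0.0120), but strata differed in size, with -0.66 in Cyp2b-null females, the only stratum that passed and the only 1 where the groups stood apart (34.3 to 56.5 CPM at 10 and 57.4 to 84.3 CPM at 0), -0.37 in Cyp2b-null males, -0.05 in hCYP2B6-Tg males and -0.01 in hCYP2B6-Tg females. The difference between genotypes was 0.49 ± 0.180 (unadjusted p = 0.00994, edgeR adjusted p = 0.459). The call was lost with the adipocyte covariate (-0.18), with unscaled library totals (-0.06) and without the 6 libraries that held liver or lymph node transcripts (-0.22). Of the enzymes on either side of this carrier, Cpt2 (-0.52 ± 0.0695), Crat (-0.34 ± 0.0398) and Cpt1a (-0.34 ± 0.135) were lower. Cpt1c (0.39 ± 0.163) was higher and Cpt1b did not pass (-0.25 ± 0.149). Both of these had low levels, with means at 0 mg/kg/day of 1.39 CPM for Cpt1c and 3.76 CPM for Cpt1b. Cpt1a had 11.9, Cpt2 68.9 and Crat 561.5 CPM there, so the values of Cpt1c and Cpt1b are less certain.

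Of the 4 other amino acid carriers, 1 was lower, 2 were higher and 1 did not pass, where 22.5% of all genes tested were lower and 25% higher. Slc25a15 (chr8:22375551-22398597, minus strand), which exchanges ornithine for citrulline, ran from 4.91 to 15.9 CPM at 10, with a median of 10.3, and from 15.2 to 23.1 CPM at 0 mg/kg/day, with a median of 18.6. Only the highest exposed mouse, a hCYP2B6-Tg male, reached into the unexposed range. Fitted over all strata, the log2 fold change came to -0.83 ± 0.0965 (edgeR adjusted p = 4.01e-09), and every stratum passed, from -0.975 in hCYP2B6-Tg females to -0.58 in hCYP2B6-Tg males. Slc25a44, a carrier of branched-chain amino acids, was higher at 46.6 ± 7.52 CPM at 10 and 37.5 ± 3.13 CPM at 0 mg/kg/day (0.32 ± 0.0613, edgeR adjusted p = 4.66e-05). Slc25a38, which brings in glycine for haem synthesis, was higher at 16.9 ± 3.54 CPM at 10 and 13.9 ± 1.66 CPM at 0 mg/kg/day (0.27 ± 0.0755, edgeR adjusted p = 0.00269). Slc25a29, a carrier of basic amino acids, gave 6.03 ± 1.27 CPM at 10 and 7.05 ± 1.66 CPM at 0 mg/kg/day and did not pass (-0.23 ± 0.107, edgeR adjusted p = 0.0691).

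Among 9 carriers of cofactors, nucleotides and the methyl donor, 5 were lower, 1 was higher and 3 did not pass. The share called was 66.7%, where 47.5% of all genes tested were called (22.5% lower and 25% higher). Slc25a42 and Slc25a16, tied to coenzyme A, had log2 fold changes of -0.40 ± 0.0635 and -0.20 ± 0.0544. Slc25a26, which imports S-adenosylmethionine, ran from 16.0 to 21.6 CPM at 10 and from 20.2 to 28.8 CPM at 0 mg/kg/day (-0.39 ± 0.0485, edgeR adjusted p = 1.62e-08) and passed in each stratum. Lrig1 overlaps Slc25a26 on the opposite strand with 412% of its counts and a log2 fold change of -0.16, so part of the Slc25a26 counts may belong to it. Slc25a32, tied to folate and FAD, was at -0.24 ± 0.0693, and the pyrimidine nucleotide carrier Slc25a36 was higher at 63.4 ± 13.5 CPM at 10 and 54.6 ± 9.74 CPM at 0 mg/kg/day (0.23 ± 0.0741). The other pyrimidine nucleotide carrier Slc25a33 (0.14 ± 0.113), the NAD carrier Slc25a51 (-0.05 ± 0.0416) and the peroxisomal carrier Slc25a17 (-0.03 ± 0.0728) did not pass.

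The 2 iron carriers moved in opposite directions. Slc25a28 (chr19:43663822-43674881, minus strand), mitoferrin-2, which supplies iron in most tissues, ran from 35.8 to 105.04 CPM at 10, with a median of 49.3, and from 24.6 to 43.2 CPM at 0 mg/kg/day, with a median of 32.2. The groups stood apart in every stratum but Cyp2b-null females, and in hCYP2B6-Tg females the values were 42.8, 48, 57.9 and 105.04 CPM at 10 and 24.6, 25.7, 26.6 and 28.0 CPM at 0 mg/kg/day. Its log2 fold change was 0.695 ± 0.0807 (edgeR adjusted p = 3.86e-09). Slc25a37, mitoferrin-1, the form that serves haem synthesis in red cell precursors, averaged 24.9 ± 4.96 CPM at 10 and 31.6 ± 4.2 CPM at 0 mg/kg/day (-0.355 ± 0.0667, edgeR adjusted p = 2.89e-05), a value that did not pass with unscaled library totals (-0.13). Per kilobase, the ratio of Slc25a37 to Slc25a28 was 0.250 ± 0.0522 at 0, 0.250 ± 0.0256 at 1 and 0.131 ± 0.0483 at 10 mg/kg/day. All 5 erythroid markers tested were lower too, where 22.5% of all genes tested were. The summed level of the 7 listed, with Slc4a1 near or at 0, was 21.1 to 99.4 CPM at 10, with a median of 40.6, and 35.3 to 188 CPM at 0 mg/kg/day, with a median of 75.8. The part of these markers in the value of Slc25a37 was not tested. The glutathione carrier Slc25a39 was lower, at 32.4 ± 5.63 CPM at 10 and 43.7 ± 7.12 CPM at 0 mg/kg/day (-0.45 ± 0.0717, edgeR adjusted p = 1.81e-06). So was its close relative Slc25a40, at 4.18 ± 0.811 CPM at 10 and 5.84 ± 0.885 CPM at 0 mg/kg/day (-0.47 ± 0.0916, edgeR adjusted p = 4.7e-05).

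Of the 3 uncoupling protein relatives, Slc25a27, first described in brain, was higher at 20.6 ± 5.03 CPM at 10 and 17.4 ± 1.89 CPM at 0 mg/kg/day (0.24 ± 0.0721, edgeR adjusted p = 0.00550), while Slc25a14 (0.06 ± 0.171) and Slc25a30 (-0.01 ± 0.149) did not pass. Of 5 relatives named otherwise, the muscle uncoupling protein Ucp3 was lower, at 77.0 ± 65.6 CPM at 10 and 180 ± 58.6 CPM at 0 mg/kg/day (-1.34 ± 0.214, edgeR adjusted p = 2.01e-06), and Ucp2 was higher (0.56 ± 0.211). The outer membrane relatives Mtch1 (-0.04 ± 0.0478) and Mtch2 (-0.01 ± 0.0391) did not pass, nor did Ucp1, the brown fat form, which had 113 counts over all libraries.

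Of 6 members in the outer membrane or without a settled substrate, 3 were lower and 3 did not pass. The share called was 50%, close to the 47.5% of all genes tested that were called (22.5% lower). Slc25a34 (chr4:141618824-141623821, minus strand), a carrier without a settled substrate in mammals, had the largest fall of the described members and a wide spread. It ran from 1.22 to 35.4 CPM at 10, with a median of 5.54, and from 4.39 to 39.2 CPM at 0 mg/kg/day, with a median of 12.7. Fitted over all strata, the log2 fold change came to -1.135 ± 0.333 (edgeR adjusted p = 0.00468). The stratum values were -2.62 ± 0.689 in Cyp2b-null females, -1.19 in Cyp2b-null males, -0.74 in hCYP2B6-Tg males and 0.01 in hCYP2B6-Tg females. Cyp2b-null females had 1.22, 2.48, 4.53 and 5.36 CPM at 10 and 9.93, 13.4, 27.1 and 33.2 CPM at 0 mg/kg/day, while hCYP2B6-Tg females had 8.35 to 35.4 CPM at 10 and 5.15 to 28.4 CPM at 0 mg/kg/day. The difference between genotypes was 1.54 ± 0.660 (unadjusted p = 0.0245, edgeR adjusted p = 0.505). Its relation to the adipocyte level was r = -0.0864 and rho = -0.0369 (permutation p = 0.603 and 0.825), with r = 0.0043 without the 2 farthest mice, and with that level as a covariate it was at -0.97 and did not pass. Slc25a47, best known from liver, was lower at 3.54 ± 0.895 CPM at 10 and 4.97 ± 0.944 CPM at 0 mg/kg/day (-0.49 ± 0.171). Slc25a46, an outer membrane protein of fusion and fission, was at -0.15 ± 0.0522 (edgeR adjusted p = 0.0174) and turned to 0.07 with unscaled library totals. Slc25a35 (-0.28 ± 0.133), Slc25a45 (0.21 ± 0.218) and Slc25a53 (0.21 ± 0.148) did not pass.

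Other proteins of the same membranes were read from lists beside the carriers. Carriers reach the inner membrane by the TIM22 route, and 5 of 10 genes listed for it were lower and none higher, a share called of 50% where 47.5% of all genes tested were called (22.5% lower and 25% higher). Those lower were, among others, the channel Timm22 (-0.65 ± 0.0723), its partner Timm29 (-0.39 ± 0.0469) and the small chaperone Timm8a1 (-0.55 ± 0.140). Of 18 inner membrane transporters outside the family, 10 were lower and 3 higher, 72.2% against the same 47.5%. The pyruvate carrier subunit Mpc2 (-0.64 ± 0.0694), the calcium uniporter Mcu (-0.51 ± 0.0641) and the ABC transporter Abcb8 (-0.43 ± 0.0481) were lower, and the serine transporter Sfxn1 was higher, at 9.38 ± 6.73 CPM at 10 and 2.49 ± 1.33 CPM at 0 mg/kg/day (1.86 ± 0.310). All 3 outer membrane channels were lower, where 22.5% of all genes tested were, with Vdac1 at 1005 ± 174 CPM at 10 and 1498 ± 181 CPM at 0 mg/kg/day (-0.57 ± 0.0672).

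No member passed at 1 against 0 mg/kg/day, and 0% of all genes tested did. In edgeR 3 members had an unadjusted p under 0.05, namely Slc25a1 (1.03 ± 0.470), Slc25a10 (0.61 ± 0.297) and Slc25a47 (0.39 ± 0.164), each with an adjusted p of 1, and DESeq2 and limma voom called none. Slc25a1 was 32.2 and 30.8 CPM in 2 hCYP2B6-Tg mice with adipocyte levels of 6.44 and 6.26 and at most 12.1 CPM in the other 1 mg/kg/day mice. Slc25a10 was 17.6 and 15.8 CPM in 1 hCYP2B6-Tg male and 1 hCYP2B6-Tg female and 18.3 CPM in the Cyp2b-null male with liver transcripts, and at most 5.96 CPM in the others at that dose. Slc25a47 was 25.3 CPM in the Cyp2b-null male with liver transcripts and at most 7.45 CPM in the others at that dose. Slc25a4 ran from 2633 to 3918 CPM at 1 mg/kg/day and Slc25a12 from 447 to 621 CPM, each close to its range at 0 mg/kg/day.

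Between 10 and 1 mg/kg/day, 24 members passed, 17 lower and 7 higher, where 46.9% of all genes tested passed (22.2% lower and 24.7% higher). Among the 10 with the smallest p were Slc25a12 (-0.59 ± 0.0558), Slc25a26 (-0.44 ± 0.0490), Slc25a15 (-0.81 ± 0.0975), Slc25a11 (-0.54 ± 0.0655), Slc25a28 (0.66 ± 0.0817), Slc25a4 (-0.58 ± 0.0747), Slc25a39 (-0.50 ± 0.0725), Slc25a42 (-0.38 ± 0.0642) and Slc25a37 (-0.39 ± 0.0675). This comparison shares the 10 mg/kg/day mice with that against 0. Slc25a29, which did not pass against 0, was lower here (-0.37), and Slc25a5 (0.21), Slc25a10 (0.31), Slc25a20 (-0.19), Slc25a22 (-0.40) and Slc25a34 (-0.53) did not pass.

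Within single strata, with 3 to 5 mice a group, the counts were as follows. In hCYP2B6-Tg females 14 members passed, 11 lower and 3 higher, where 27.7% of all genes did (13.5% lower and 14.2% higher). In hCYP2B6-Tg males 14 passed, 12 lower and 2 higher, where 18.5% of all genes did (10.6% lower and 7.92% higher). In Cyp2b-null females 14 passed, 10 lower and 4 higher, where 12.7% of all genes did (6.87% lower and 5.83% higher). In Cyp2b-null males 9 passed, 6 lower and 3 higher, where 15.8% of all genes did (8.36% lower and 7.45% higher). Leaving out 1 library at a time gave 10 to 15 members in hCYP2B6-Tg females, 5 to 16 in hCYP2B6-Tg males, 10 to 19 in Cyp2b-null females and 7 to 12 in Cyp2b-null males. The adipocyte covariate left 2 calls among hCYP2B6-Tg males, 5 among Cyp2b-null females and 11 for each of the remaining strata. Over all 15583 genes it left 1334 calls in hCYP2B6-Tg males, 771 in Cyp2b-null females, 2524 in Cyp2b-null males and 4004 in hCYP2B6-Tg females. The fit without it had 2882, 1979, 2463 and 4309 in that order. Without the 6 libraries that held liver or lymph node transcripts, 3 members passed for hCYP2B6-Tg males, 5 for Cyp2b-null males, 7 for Cyp2b-null females and 10 for hCYP2B6-Tg females. Over all genes 1508, 1504, 834 and 4057 passed, with the strata in the same order. With unscaled library totals 2 were lower and 9 higher for hCYP2B6-Tg males, 5 lower and 4 higher for Cyp2b-null males, 7 lower and 9 higher for Cyp2b-null females, and 7 lower and 7 higher for hCYP2B6-Tg females. Of all genes called with these totals, 85.2%, 69.2%, 91% and 74.9% were higher, with the strata in the same order.

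In the scaled fit Slc25a4, Slc25a3, Slc25a11, Slc25a12, Slc25a15 and Slc25a26 passed, lower, in each stratum. Slc25a37 (-0.63 ± 0.133 in females, -0.435 ± 0.126 in males) and Slc25a39 (-0.68 ± 0.142 and -0.40 ± 0.135) were lower in both sexes of hCYP2B6-Tg mice. Slc25a44 (0.43 ± 0.122) and Slc25a27 (0.42 ± 0.143) were higher in hCYP2B6-Tg females, as they were in Cyp2b-null males (0.39 ± 0.131 and 0.48 ± 0.153). Slc25a42 was lower in hCYP2B6-Tg males (-0.46 ± 0.120), Cyp2b-null females (-0.46 ± 0.125) and hCYP2B6-Tg females (-0.345 ± 0.125). In hCYP2B6-Tg males Slc25a16 was lower (-0.37 ± 0.103) and Slc25a38 higher (0.48 ± 0.142). Of the 28 members called over all strata, 21 had the same sign in every stratum, 75%, where 82.6% of the 7403 genes called did. Slc25a28 passed in all but hCYP2B6-Tg males, with 1.27 ± 0.163 in hCYP2B6-Tg females, 0.48 ± 0.161 in Cyp2b-null females and 0.72 ± 0.172 in Cyp2b-null males. Slc25a1 passed in Cyp2b-null females (4.35 ± 0.975) and hCYP2B6-Tg males (2.74 ± 0.855). The Cyp2b-null females also had calls for Slc25a10 (1.98 ± 0.593), Slc25a5 (0.63 ± 0.217), Slc25a34, Slc25a20 and Slc25a25.

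**Figure D5:**
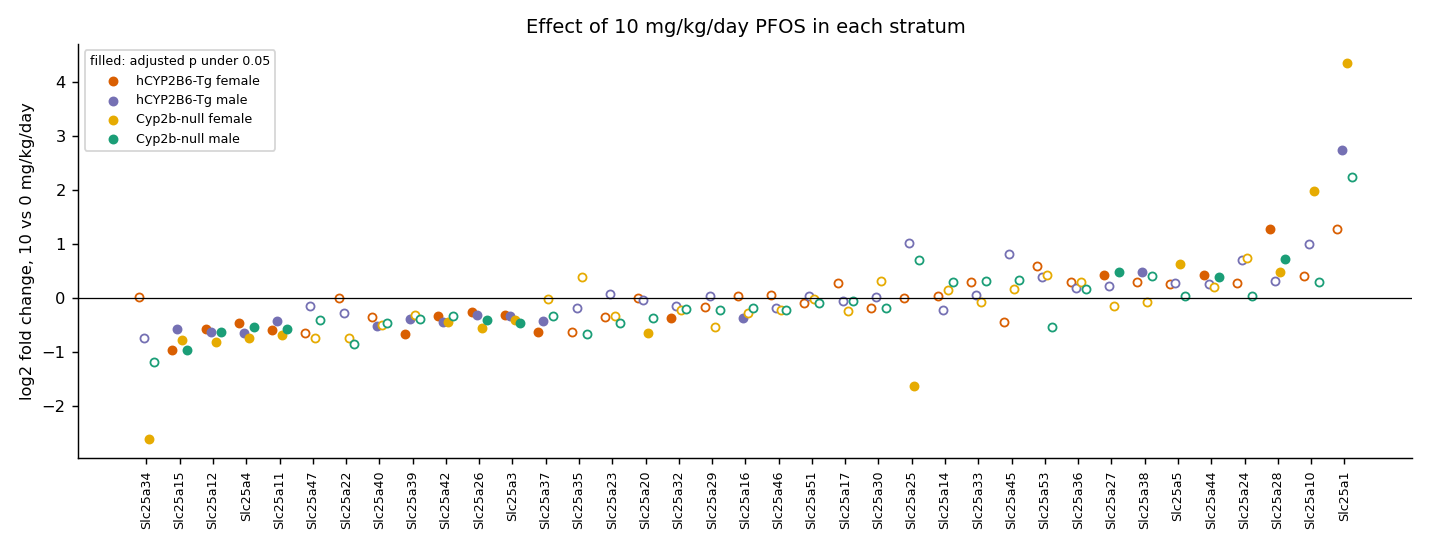
Log2 fold change of 37 of the 38 described carriers at 10 against 0 mg/kg/day in each of the 4 strata, ordered by the mean over strata; filled points passed an adjusted p of 0.05 within the stratum. Slc25a4, Slc25a11, Slc25a12 and Slc25a15 cluster below 0 in every stratum, while Slc25a25 runs from -1.64 in Cyp2b-null females to 1.01 in hCYP2B6-Tg males.

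No member's response to 10 mg/kg/day differed between sexes or between genotypes after adjustment, where 0.128% and 0% of all genes tested did. At an unadjusted p under 0.05 there were 3 members for sex and 6 for genotype, and DESeq2 called 1 for sex. Slc25a25, which carries ATP-Mg for phosphate in muscle, was nearest, with a female minus male difference of -1.67 ± 0.452 (unadjusted p = 0.000642, edgeR adjusted p = 0.125). In Cyp2b-null females it was 53.9, 55.7, 56.1 and 58.1 CPM at 10 and 49.0, 120, 204 and 325 CPM at 0 mg/kg/day (-1.64 ± 0.456, passing within that stratum), and in hCYP2B6-Tg males it was 48.2, 61.1, 79.3 and 119.3 CPM at 10 and 31.6 to 44.0 CPM at 0 mg/kg/day (1.01). The unexposed Cyp2b-null females thus spread widely and the exposed ones hardly at all.

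Without PFOS, no member differed between hCYP2B6-Tg and Cyp2b-null mice after adjustment, where 0% of all genes tested did, and 3 had an unadjusted p under 0.05. Slc25a25 was again nearest, lower in hCYP2B6-Tg mice (-1.595 ± 0.314, edgeR adjusted p = 0.136), and it passed in DESeq2 and with no filter on low counts. Between females and males without PFOS, 1 member passed, where 7.59% of all genes tested did. Slc25a30, a kidney carrier related to the uncoupling proteins, was lower in females (-0.68 ± 0.206, edgeR adjusted p = 0.0341), with 3.08 to 5.89 CPM in Cyp2b-null females and 3.69 to 10.6 CPM in Cyp2b-null males, and 4.58 to 6.60 CPM in hCYP2B6-Tg females and 3.95 to 11.7 CPM in hCYP2B6-Tg males. The groups overlapped in both genotypes.

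The 9 members under the level of the rule were Slc25a13, Slc25a2, Slc25a18, Slc25a48, Slc25a43, Slc25a41, Slc25a31, Slc25a21 and Slc25a54, with 14 to 432 counts each over all 48 libraries. The least expressed described member by the rule, Slc25a45, reached 1 CPM in 33 libraries, and the nearest outside it, Slc25a13, the liver aspartate/glutamate carrier citrin, in 4. Slc25a13 and Slc25a48 were abundant enough for the test, where Slc25a13 did not pass at 10 against 0 mg/kg/day (-0.43 ± 0.427). Slc25a48 passed (edgeR adjusted p = 0.00178), with at most 15 counts in a library and 0.236 ± 0.257 CPM at 10 and 0.0172 ± 0.0409 CPM at 0 mg/kg/day. Most unexposed libraries held none of it, so its fitted fold is not given. Slc25a29 and Slc25a47 are neighbours on chromosome 12, and Slc25a24 and Slc25a54 lie 6462 bases apart on chromosome 3. Transcript stretches of 50 bases shared with other genes made up 25.8% of Slc25a35, 12.6% of Slc25a33, 11.8% of Slc25a36 and 10.3% of Slc25a40, and these levels are less certain for it.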

How the data were processed

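Raw counts per gene of 48 libraries, with gene lengths and GRCm38 coordinates, were deposited as a single table. The submitters' processing notes name HISAT2 and GRCm39. Not given in the sources used here are the read counter, its annotation and its use of strand. The tissue field names gastrocnemius and the extraction text names liver. From the deposited counts, genes were filtered with filterByExpr, leaving 15583 of 54532, scaled by TMM and fitted with edgeR 4.0.16 in R 4.3.3 by quasi-likelihood with 1 coefficient per group (residual degrees of freedom 36, coefficient of variation between mice 23.5%), which pools the spread over all groups. Contrasts were tested two-sided, adjusted by Benjamini-Hochberg over the 15583 genes and called at 0.05. SE is the size of the log2 fold change over the root of F. CPM uses TMM-scaled library sizes, and per kilobase values use the table's gene length. The model was tested on simulated counts in which few genes changed, as many up as down, with the same spread for all genes. With so few genes changed, that test cannot speak to the difference between scaled and unscaled library totals. DESeq2 1.42.0 and limma 3.58.1 voom were alternatives, beside other scalings, filters, a covariate, a replicate block and left-out libraries and strata. Over 73 pairs of libraries within groups, chi-square per degree of freedom was at least 7.24, so no library was counted as a copy. With 3 to 5 mice a group, p-values set a difference against the spread between these mice, pooled over all groups.

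All described members but 1, which is not reported here, are named. Given in full are the 8 with the largest log2 fold change past the threshold at 10 against 0 mg/kg/day, plus Slc25a3, Slc25a4, Slc25a5, Slc25a11, Slc25a12 and Slc25a20. For the other comparisons members past the threshold are named, up to the 10 with the smallest p, and up to 4 genes per list. Members and lists were chosen with earlier results of these data known. Beyond that rule, Slc25a25, and the other members and list genes that did not pass, were named after their values were seen.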

Additional observations from a re-analysis of the deposited data

Results flagged for a closer look

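For the 11 members given in full, 121 groups of 4 or 5 mice were examined for a single mouse far from the others, and 12 stood apart. The cut-off flags about 1 in 20 groups if values are normal and groups independent. Here the 11 members were read in the same 11 groups of mice, so that rate is no measure of chance for these 12.

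The citrate carrier Slc25a1 had 4 such mice. They were hCYP2B6-Tg female 1 replicate 1 with 32.2 CPM (2.59 to 3.98 in the others of its group), hCYP2B6-Tg male 1 replicate 1 with 30.8 CPM (3.10 to 6.03), hCYP2B6-Tg female 0 replicate 4 with 11.2 CPM (2.13 to 3.42) and Cyp2b-null female 0 replicate 1 with 5.03 CPM (1.45 to 2.03). The dicarboxylate carrier Slc25a10 had 3: hCYP2B6-Tg female 1 replicate 1 with 15.8 CPM (3.00 to 4.79), hCYP2B6-Tg male 1 replicate 1 with 17.6 CPM (3.85 to 5.96) and Cyp2b-null male 1 replicate 2, the library with liver transcripts, with 18.3 CPM (2.69 to 4.08).

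Cyp2b-null male 0 replicate 3 was high in 3 members, with 574 CPM of Slc25a12 (502 to 510), 279 CPM of Slc25a11 (216 to 227) and 104 CPM of the acylcarnitine carrier Slc25a20 (54.0 to 60.8). Slc25a20 was low, at 47.4 CPM, in hCYP2B6-Tg female 1 replicate 1 (68.2 to 69.6). Slc25a4 was low, at 3030 CPM, in hCYP2B6-Tg male 1 replicate 4 (3470 to 3550).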

How the results depend on the processing

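At 10 against 0 mg/kg/day, 28 members were called. DESeq2 size factors, DESeq2, a filter at 1 CPM in 12 libraries, library sizes without mitochondrial and the 20 most abundant genes, and the replicate block each kept all 38 members on their side of the threshold. Unscaled library totals called 23 (13 higher, 10 lower) and moved the median of all genes to 0.255. Under them Slc25a51 turned to 0.17 and Slc25a17 to 0.191, and both, not called in the main fit, passed as higher. Slc25a46 turned to 0.067 and Slc25a16 to 0.009, and neither passed. A further 7 calls were lost, and 2 other members were newly called. The adipocyte covariate left 17 calls, 16 of them among the 28, where 5073 of 15583 genes were called, and Slc25a10 turned to -0.44 and Slc25a5 to -0.052. The covariate itself differs with dose, so what it removes was not told apart from dose. It left 5 calls in Cyp2b-null females, where 771 of all genes were called, and 2 in hCYP2B6-Tg males, where 1334 were. Leaving out the 6 libraries with liver or lymph node transcripts ended the calls of Slc25a20, Slc25a46, Slc25a5 and Slc25a23 and left 3 calls in hCYP2B6-Tg males, 7 in Cyp2b-null females and 5 in Cyp2b-null males. Over all genes 1508, 834 and 1504 calls were left, with the strata in the same order. With no filter there were 9 in hCYP2B6-Tg females, 9 in hCYP2B6-Tg males and 1 between genotypes at 0. Limma voom gave 9 in hCYP2B6-Tg males, 15 in Cyp2b-null males and 10 between the sexes at 0. DESeq2 gave 1 for the sex difference of the 10 mg/kg/day effect and 1 between genotypes at 0. Between the sexes at 0 unscaled totals gave 2, both higher in females, and the replicate block 0. The cause of these moves was not tested, beyond the fewer mice or genes that an alternative holds by construction.

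Replicate numbers come from different mice and did not pair them: 10 of 46 same-numbered pairs within strata had a correlation of deviations above 0.1, with a median of -0.00772. With the replicate block 15 members were called in hCYP2B6-Tg males, 14 of them among the 14 called without it, and 13 in Cyp2b-null females, all called without it. Its counts in the other comparisons, apart from that between the sexes at 0, were those without the block. Leaving out 1 library at a time gave 27 to 29 members at 10 against 0, 24 to 27 at 10 against 1, 0 at 1 against 0, 10 to 15 in hCYP2B6-Tg females, 5 to 16 in hCYP2B6-Tg males, 10 to 19 in Cyp2b-null females, 7 to 12 in Cyp2b-null males, 0 to 1 between genotypes at 0, 0 to 2 between sexes at 0 and 0 for either difference of effects. Members near 1 CPM, such as Slc25a45 and Slc25a14, rest on few counts, and a change in them may not be detectable at this depth.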
